A study of Homo sapiens with 13 samples.

Results

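Zinc finger genes of the numbered ZNF series that lie outside chromosome 19 were examined for peaks of GFP-tagged DNMT1. The members were all protein-coding genes of the RefSeq annotation of GRCh38 whose symbol is ZNF followed by a number, with at most 1 letter after it, on chromosomes 1 to 18, 20 to 22 and X. This gave 263 of 20033 protein-coding genes, and the corresponding genes on chromosome 19 numbered 246. No member lay on chromosome 13 or 21. The rule uses name and position only and no measured value.

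The data are anti-GFP ChIP-seq peak lists from MV4-11, an established line of human acute myeloid leukaemia cells. All GFP-DNMT1 lines carried a guide against the endogenous DNMT1 gene and expressed GFP-DNMT1 ectopically, also in the controls. In the WT line the tagged protein was wild type, and in the RFTSdel line it lacked the RFTS domain, which helps to direct DNMT1 to its substrate. The NTC line carried wild-type GFP-DNMT1 and a non-targeting guide, and the UHRF1KO line carried wild-type GFP-DNMT1 and a guide against UHRF1, the protein that recognises hemimethylated DNA and recruits DNMT1. Each line was grown for 7 days with DMSO or with 100 nM GSK-3685032, a DNMT1 inhibitor, here called DNMT1i. There were 2 RFTSdel libraries per treatment and 1 of each other line. A further library came from parental cells without GFP, which were untreated, with neither DMSO nor DNMT1i. By the sample labels WT, RFTSdel and the parental cells were batch 1, and NTC and UHRF1KO were batch 2. The labels do not say whether the 2 RFTSdel replicates were cultured separately, and the spread between them may be only technical. The lines stand for overexpressed protein, and the lists allow no check of the cell line's markers, of the loss of endogenous DNMT1 or of the UHRF1 knockout.

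The peak lists hold no read counts and the sequencing depth is unknown. After removal of peaks that overlapped 1 of the 426 parental peaks, the DMSO lists held 12245 to 32534 peaks and the DNMT1i lists 4254 to 11141. In each of the 5 pairs of the same line the DNMT1i list was the shorter one, so a lower number of marked genes after DNMT1i is also what a shorter list gives. A gene was called marked when a peak of a library lay within 1 kb of either of its ends. Among the members, 7 had a parental peak at an end (ZNF37A, ZNF511, ZNF276, ZNF407, ZNF337, ZNF512B and ZNF654), and this antibody background was left out of the counts. The genes themselves stayed in the totals.

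C2H2 zinc finger proteins bind DNA through tandem fingers that each contact a few bases, and they form the largest family of human transcription factors. Many carry a KRAB domain, which recruits the corepressor TRIM28 and, through it, histone H3 lysine 9 methylation and DNA methylation, often at transposable elements. Others have no KRAB domain and act as activators, developmental regulators or RNA-binding proteins. DNMT1 restores CpG methylation on newly replicated DNA, while CpG-rich promoters are mostly unmethylated. Many KRAB zinc finger genes lie in clusters that arose by tandem duplication.

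The promoters below are single examples of members with different peak patterns, and their CpG numbers do not stand for the patterns. In a window of 300 bases at the start the median was 21 CpGs in members marked in all 5 DMSO and no DNMT1i library. It was 21.5 in members marked under DNMT1i only. The stretches shown are the 250 bases before the RefSeq start, 5′ to 3′ in the direction of the gene, with CpG dinucleotides in capitals, from the RefSeq table for GRCh38.p14. A peak was counted for a stretch when it overlapped any part of it, so much of the stretch can lie outside the peak. ZNF32 (chr10:43648882-43649131, minus strand, 27 CpGs) and ZNF354A (chr5:178730660-178730909, minus strand, 20 CpGs) had such a peak in all 10 libraries.
ZNF32: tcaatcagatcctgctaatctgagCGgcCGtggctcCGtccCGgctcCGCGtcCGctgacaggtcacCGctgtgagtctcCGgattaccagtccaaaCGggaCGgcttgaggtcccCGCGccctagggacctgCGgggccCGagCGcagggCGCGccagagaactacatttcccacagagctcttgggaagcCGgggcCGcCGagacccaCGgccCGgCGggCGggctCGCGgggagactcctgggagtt
ZNF354A: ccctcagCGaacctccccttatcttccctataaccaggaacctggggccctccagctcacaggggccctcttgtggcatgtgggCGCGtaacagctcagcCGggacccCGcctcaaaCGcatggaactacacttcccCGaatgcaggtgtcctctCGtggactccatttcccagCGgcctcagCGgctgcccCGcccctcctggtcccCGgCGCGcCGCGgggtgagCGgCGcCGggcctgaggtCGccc
ZNF775 (chr7:150379080-150379329, plus strand, 29 CpGs) had such a peak in all 5 DMSO libraries and, under DNMT1i, in both RFTSdel libraries. The NTC DMSO peak ended at base 150379101 and so reached only the edge of the stretch.
ZNF775: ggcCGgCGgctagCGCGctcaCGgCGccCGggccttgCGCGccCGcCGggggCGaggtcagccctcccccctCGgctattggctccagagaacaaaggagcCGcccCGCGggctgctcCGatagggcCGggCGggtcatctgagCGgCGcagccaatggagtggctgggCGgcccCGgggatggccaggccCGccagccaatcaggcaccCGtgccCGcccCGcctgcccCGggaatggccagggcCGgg
ZNF365 (chr10:62374119-62374368, plus strand, 35 CpGs) had such a peak in 4 DNMT1i libraries and in no DMSO library. ZNF454 (chr5:178940948-178941197, plus strand, 23 CpGs) had a peak there in the NTC and WT DNMT1i libraries only. ZNF354C (chr5:179060123-179060372, plus strand, 26 CpGs) had a peak in 3 DNMT1i libraries and in WT DMSO.
ZNF365: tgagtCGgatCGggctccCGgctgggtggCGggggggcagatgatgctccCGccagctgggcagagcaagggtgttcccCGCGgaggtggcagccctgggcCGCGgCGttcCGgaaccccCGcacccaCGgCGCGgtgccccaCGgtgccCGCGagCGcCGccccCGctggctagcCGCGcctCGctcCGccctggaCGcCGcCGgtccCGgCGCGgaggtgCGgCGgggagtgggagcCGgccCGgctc
ZNF454: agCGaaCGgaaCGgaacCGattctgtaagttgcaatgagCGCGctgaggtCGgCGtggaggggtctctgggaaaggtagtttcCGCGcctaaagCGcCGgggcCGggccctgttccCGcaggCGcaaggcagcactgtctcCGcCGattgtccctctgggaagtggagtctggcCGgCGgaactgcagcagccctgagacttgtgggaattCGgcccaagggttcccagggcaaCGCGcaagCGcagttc
ZNF354C: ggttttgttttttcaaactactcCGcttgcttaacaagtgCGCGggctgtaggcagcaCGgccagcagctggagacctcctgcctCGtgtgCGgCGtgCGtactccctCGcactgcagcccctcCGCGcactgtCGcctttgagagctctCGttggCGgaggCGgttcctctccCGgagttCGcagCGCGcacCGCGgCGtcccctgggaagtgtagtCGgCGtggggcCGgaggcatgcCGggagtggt
ZNF785 (chr16:30585698-30585947, minus strand, 10 CpGs) and ZNF330 (chr4:141220645-141220894, plus strand, 10 CpGs) had such a peak in the 5 DMSO libraries and in no DNMT1i library. Some of these peaks reached only the edge of the stretch. At ZNF785 the DMSO peaks of RFTSdel replicates 1 and 2 ended at bases 30585733 and 30585716, and at ZNF330 the NTC DMSO peak began at base 141220864.
ZNF785: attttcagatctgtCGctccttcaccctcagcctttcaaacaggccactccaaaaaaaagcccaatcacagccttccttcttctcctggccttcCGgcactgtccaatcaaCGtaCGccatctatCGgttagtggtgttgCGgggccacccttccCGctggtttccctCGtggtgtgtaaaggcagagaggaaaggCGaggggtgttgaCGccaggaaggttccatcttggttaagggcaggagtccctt
ZNF330: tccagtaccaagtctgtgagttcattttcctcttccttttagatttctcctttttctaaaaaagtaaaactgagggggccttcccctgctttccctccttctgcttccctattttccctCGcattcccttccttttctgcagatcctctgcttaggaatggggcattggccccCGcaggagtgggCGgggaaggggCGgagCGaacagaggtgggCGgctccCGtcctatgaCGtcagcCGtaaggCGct

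Under DMSO most members carried a DNMT1 peak at an end in each library. The number was 156 of 263 in NTC (59.3%, 95% Wilson interval 53.3 to 65.1, with 50.8% of all protein-coding genes), 163 in UHRF1KO (62.0%, all coding 53.7%) and 135 in WT (51.3%, all coding 44.2%). RFTSdel had 149 in replicate 1 (56.7%, all coding 44.9%) and 153 in replicate 2 (58.2%, all coding 47.5%). After DNMT1i the number was 44 in NTC (16.7%, all coding 14.5%), 55 in UHRF1KO (20.9%, all coding 15.8%) and 29 in WT (11.0%, all coding 9.95%). It was 71 in RFTSdel replicate 1 (27.0%, all coding 29.1%) and 130 in replicate 2 (49.4%, all coding 41.2%). All 5 DMSO libraries lay above all 5 DNMT1i libraries, and the gap was smallest in RFTSdel replicate 2.

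The change from DMSO to DNMT1i was −42.6 percentage points in NTC, −41.1 in UHRF1KO, −40.3 in WT, −29.7 in RFTSdel replicate 1 and −8.75 in RFTSdel replicate 2. The mean over the 5 pairs was −32.5 ± 14.2 points (SD, n = 5 pairs), and −26.1 ± 14.2 for all protein-coding genes. Within batches it was −26.2 ± 16.1 (n = 3) in batch 1 and −41.8 ± 1.08 (n = 2) in batch 2, where batch 1 holds both RFTSdel pairs and batch 2 none. When each list was reduced to its 4254 peaks of highest −log10 q, the length of the shortest list, the mean change was −6.54 ± 3.34 points. For all protein-coding genes it was −2.66 ± 1.85 points. In these lists of equal length 17.9 to 24.3% of members were marked under DMSO and 11.0 to 20.2% under DNMT1i, so these ranges overlapped. Within each of the 5 pairs the share was lower under DNMT1i. It went from 24.3 to 12.9% in NTC, 23.2 to 20.2% in UHRF1KO and 17.9 to 11.0% in WT. In RFTSdel replicates 1 and 2 it went from 22.8 to 15.2% and from 23.2 to 19.4%. The difference in the full lists thus moved with their length, and the part of list length in it was not tested beyond this reduction.

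Peaks over the gene body gave a like picture, but they are no separate readout. The body includes the inner 1 kb of each end window, so a peak there counts in both. A peak overlapped the gene between its ends in 62.7% of members in NTC DMSO (all coding 57.8%), 67.3% in UHRF1KO (62.8%), 56.3% in WT (49.7%), 60.5% in RFTSdel replicate 1 (48.6%) and 62.4% in replicate 2 (52.0%). Under DNMT1i the shares were 23.6% in NTC (all coding 19.3%), 27.4% in UHRF1KO (18.1%), 18.6% in WT (14.2%), 31.6% in RFTSdel replicate 1 (31.8%) and 50.6% in replicate 2 (44.4%). The highest DNMT1i share, in RFTSdel replicate 2, lay below the lowest DMSO share, in WT. The mean change was −31.5 ± 11.9 points (n = 5 pairs), against −28.6 ± 15.7 for all protein-coding genes. Among end peaks centred within 2 kb of a known start (17 in WT DNMT1i to 125 in UHRF1KO DMSO), the median centre lay 14 to 86 bases downstream of the start over the 10 libraries. The median length of the members' end peaks ranged from 402 to 816 bases, and their median fold over background, as the authors' caller gave it, from 3.98 to 5.08.

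Gene by gene, no member passed the test between treatments. The Fisher exact test of 5 DMSO against 5 DNMT1i libraries, two-sided, with Benjamini-Hochberg adjustment over 20033 genes, called 0 members in either direction (0.0% of all coding genes), and the smallest adjusted p was 0.182. At an unadjusted p below 0.05 there were 52 members with fewer DNMT1i libraries (19.8%, all coding 13.7%) and 1 with more (0.38%, all coding 1.04%). The single member with more was ZNF365. With 1 pair left out, 14 members had fewer without NTC, 15 without UHRF1KO, 20 without WT, 15 without RFTSdel replicate 1 and 40 without RFTSdel replicate 2, where a test of 4 against 4 libraries needs a mark in all of one treatment and none of the other. This design cannot give an unadjusted p below 0.00794, which came to 0.182 after adjustment.

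Of the 263 members, 111 were marked in all 5 DMSO libraries (42.2%, all coding 32.9%), and 55 were marked in no library (20.9%, all coding 31.4%). The 55 include ZNF37A, ZNF276, ZNF337, ZNF407 and ZNF654, whose end peaks overlapped a parental peak and were removed. With parental peaks kept, these genes were marked in 8 to 10 libraries. Of the 111, 95 kept an end peak in at least 1 RFTSdel library under DNMT1i (85.6%, against 85.2% of the 6587 coding genes marked in all 5 DMSO libraries). UHRF1KO kept 39 of the 111 (35.1%, coding 30.2%), NTC 15 (13.5%, coding 11.8%) and WT 7 (6.31%, coding 3.37%). Kept means a peak at either end, not always at the end marked under DMSO. In NTC and WT, ZNF213, ZNF775 and ZNF777 had their DNMT1i peak only at the end without a DMSO peak in that line. The same held for ZNF783 in NTC and for ZNF775 and ZNF777 in UHRF1KO. A set of 28 of the 111 was kept in both RFTSdel libraries and nowhere else under DNMT1i (25.2%, coding 35.4%), and 27 in 1 RFTSdel library and nowhere else (24.3%, coding 17.3%). The 28 include ZNF76, the paralogue of the activator ZNF143, and ZNF148, ZNF644, ZNF326 and ZNF503. A further 19 were kept in both RFTSdel libraries and UHRF1KO but in neither NTC nor WT (17.1% of the 111, coding 15.9%), among them ZNF592 and ZNF687, which form a complex with ZMYND8.

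The persistence differed between the lines in the same order as for all genes. Of the members marked under DMSO, 13.5% stayed marked at either end after DNMT1i in NTC, 10.4% in WT, 28.2% in UHRF1KO, 45% in RFTSdel replicate 1 and 76.5% in RFTSdel replicate 2. For all protein-coding genes the shares were 15.9, 10.4, 23.5, 55.0 and 72.5%. The mean was 34.7 ± 27.1% for members and 35.5 ± 27.0% for all coding genes (SD, n = 5 pairs), a difference within the spread between pairs. With −log10 q of at least 4 the means were 9.32% and 10.9%. Members marked under DMSO only numbered 135 in NTC (all coding 42.8%), 117 in UHRF1KO (all coding 41.0%), 121 in WT (all coding 39.6%), 82 in RFTSdel replicate 1 (all coding 20.2%) and 36 in replicate 2 (all coding 13.1%). Members marked under DNMT1i only numbered 23 in NTC (all coding 6.45%), 9 in UHRF1KO (all coding 3.18%), 15 in WT (all coding 5.37%), 4 in RFTSdel replicate 1 (all coding 4.38%) and 13 in replicate 2 (all coding 6.78%).

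UHRF1KO and NTC, each with 1 library per treatment and so with no replicate check, marked mostly the same members under DMSO. They shared 148, which is 90.8% of the UHRF1KO members and 94.9% of the NTC members (all coding 84.5% and 89.1%). In UHRF1KO alone 15 were marked (5.7% of members, all coding 8.33%). Under DNMT1i they shared 21, or 38.2% of the UHRF1KO and 47.7% of the NTC members (all coding 40.9% and 44.4%). There were 34 in UHRF1KO alone (all coding 9.34%) and 23 in NTC alone (all coding 8.08%). The RFTSdel DMSO libraries each shared 116 members with WT DMSO, 77.9% and 75.8% of their own and 85.9% of the WT members. For all coding genes the shares were 79.7% and 77.6% of their own and 81.1% and 83.5% of the WT genes. Under DNMT1i RFTSdel replicates 1 and 2 shared 6 and 12 members with WT, 20.7% and 41.4% of the WT members (all coding 37.2% and 51.6%). In RFTSdel and not in WT 65 and 118 members were marked (all coding 25.4% and 36.1%). The RFTSdel replicates shared 144 members with each other under DMSO, 96.6% of replicate 1 and 94.1% of replicate 2 (all coding 96.3% and 91.0%). Under DNMT1i they shared 66, which is 93.0% of replicate 1 but 50.8% of replicate 2 (all coding 90.9% and 64.1%). The marked members of replicate 1 were thus largely contained in the longer list of replicate 2, as were the marked coding genes.

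A handful of members were marked in every library: ZNF32, ZNF75A, ZNF354A, ZNF777 and ZNF775, 5 of 263 (1.9%, all coding 0.459%). The ZNF32 peak had a fold over background of 6.82, 4.24, 3.6, 5.35 and 4.07 in NTC, UHRF1KO, WT and RFTSdel replicates 1 and 2 under DMSO, and of 3.95, 3.78, 3.84, 4.26 and 3.4 under DNMT1i. It covered the same start in each, from 286 bases long in UHRF1KO DNMT1i to 767 in RFTSdel DMSO replicate 2. The ZNF354A peak had folds of 5.52, 3.3, 5.17, 5.18 and 4.75 under DMSO and of 5.22, 5.92, 4.38, 4.6 and 4.43 under DNMT1i, in the same order of lines. Its −log10 q ran from 1.46 in UHRF1KO DMSO to 6.02 in RFTSdel DMSO replicate 1. Folds and −log10 q are the authors' values for a peak within its own list, so they show presence and rank there and no change between libraries. ZNF75A peaks were weak throughout, with −log10 q from 1.13 to 2.76, and with a minimum −log10 q of 2 none of the 5 genes was called in every library. Without the WT pair 9 members were marked in every library.

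ZNF775 and ZNF777 kept a mark in every library only because it was counted at either end. Under DMSO the ZNF775 peak lay over or within 1 kb of the start in all 5 libraries, for example at chr7:150378368-150379585 in RFTSdel replicate 2 (fold 6.66). Under DNMT1i all 5 libraries had a peak at the far end of the gene, at chr7:150396907-150398155 in NTC, with folds of 4.33 in NTC, 4.17 in UHRF1KO, 4.33 in WT, 3.55 in RFTSdel replicate 1 and 3.67 in replicate 2. No DMSO library had a peak there, and only the RFTSdel DNMT1i libraries also kept the start (folds 3.29 and 3.46). ZNF777, also on chromosome 7, whose strand the promoter table does not give, had its DMSO peaks at the end of higher coordinate in 5 of 5 libraries (folds 4.22 to 5.8). Under DNMT1i the other end was marked in NTC (4.65), UHRF1KO (4.04), WT (4.51) and RFTSdel replicate 2 (3.7), and the DMSO-marked end in RFTSdel replicates 1 and 2 (4.5 and 4.22). These genes were singled out after their values were seen, and the pattern has no test.

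**Figure D1:**
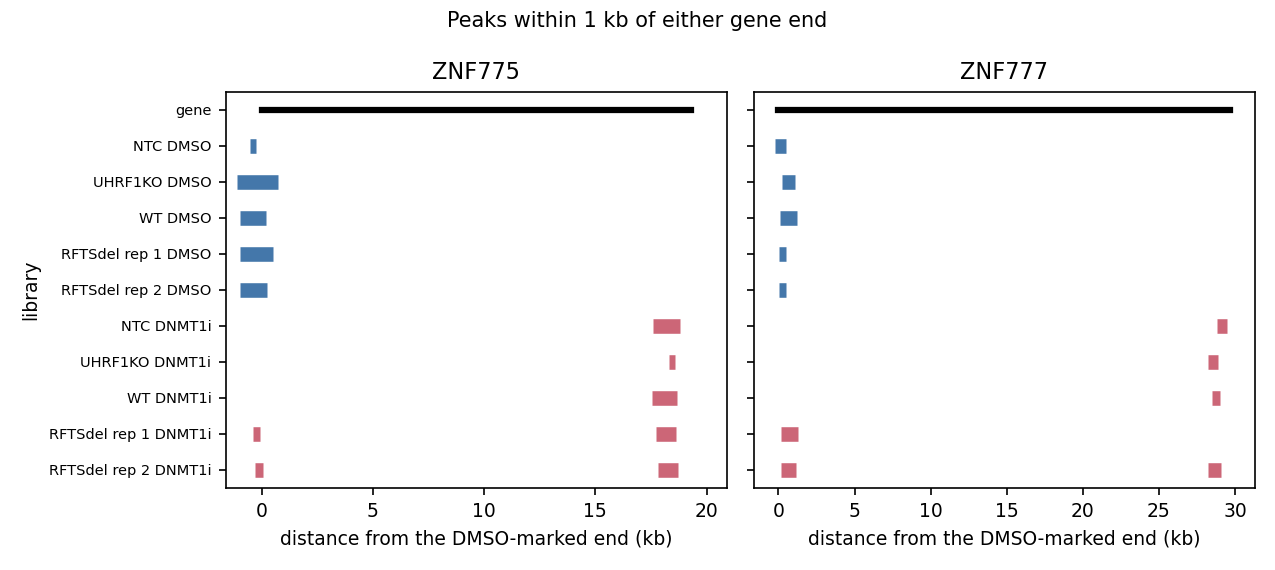
Peaks within 1 kb of either end of ZNF775 (left) and ZNF777 (right), drawn to scale by distance in kb from the end that was marked under DMSO (x axis) for each of the 10 libraries (y axis). The black bar is the gene, blue bars are DMSO peaks and red bars DNMT1i peaks; all DMSO peaks lie at the left end, and the right end of ZNF775 is marked in all 5 DNMT1i libraries and that of ZNF777 in 4.

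A mark at the start under DMSO and at the far end under DNMT1i was uncommon. Such changes were counted over genes longer than 5 kb with a known strand, 205 members among 13502 genes. In NTC 3 members were marked at the start only under DMSO and at the far end only under DNMT1i (ZNF213, ZNF783 and ZNF775; 1.46%, all coding 0.333%), in WT 2 (ZNF213 and ZNF775; 0.976%, all coding 0.296%) and in UHRF1KO 1 (ZNF775; 0.488%, all coding 0.0741%). RFTSdel gave 0 in replicate 1 (all coding 0.0963%) and 1 in replicate 2 (ZNF219; all coding 0.133%). ZNF213 on chromosome 16 had its DMSO peak at the start in 5 of 5 libraries and its far-end peak in NTC and WT DNMT1i (folds 3.71 and 4.53). ZNF205, on the same chromosome, had no DMSO peak at either end and a far-end peak in NTC, WT and RFTSdel replicate 2 under DNMT1i (3.88, 4.03 and 3.35). ZNF467 had the same 3 DNMT1i libraries at its far end (4.59, 4.7 and 3.59) and WT DMSO as well (3.84).

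Members marked in all 5 DMSO and in no DNMT1i library numbered 13 (4.94%, all coding 4.12%): ZNF33B, ZNF142, ZNF165, ZNF189, ZNF200, ZNF207, ZNF330, ZNF346, ZNF624, ZNF684, ZNF747, ZNF785 and ZNF852. Each had an unadjusted p of 0.00794 and an adjusted p of 0.182 by the Fisher exact test with Benjamini-Hochberg adjustment. ZNF852 had the highest minimum over the 5 libraries, with −log10 q of 4.05, 4.65, 3.6, 7.17 and 3.94 in NTC, UHRF1KO, WT and RFTSdel replicates 1 and 2. ZNF142 followed with 3.5, 4.11, 2.8, 4.41 and 5.25, whereas ZNF330 had 1.37, 2.33, 2.37, 1.74 and 1.96, close to the lowest values in the lists. The number was 40 without RFTSdel replicate 2 and 20 without WT, and 3 in lists of equal length.

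Members without any DMSO mark numbered 76 (28.9%, all coding 37.0%), and 21 of them were marked in at least 1 DNMT1i library (27.6% of the 76, against 15.2% of the 7415 coding genes without a DMSO mark). The share was alike, 30.0%, for the 90 ZNF genes on chromosome 19 without a DMSO mark. In both wild-type lines, NTC and WT, 9 of the 76 members had a DNMT1i peak (11.8%, coding 7.01%, chromosome 19 ZNF genes 12.2%): ZNF205, ZNF232, ZNF365, ZNF385B, ZNF454, ZNF521, ZNF695, ZNF804B and ZNF860. The lack of a DMSO mark holds for gene ends only. Under DMSO a body peak was present at ZNF232 in 4 libraries, at ZNF365 and ZNF695 in 2 each and at ZNF521 in 1, while ZNF205, ZNF385B and ZNF454 had none. ZNF365, a regulator of genome stability, had no end peak in the 5 DMSO libraries. Under DNMT1i it had start peaks with folds of 5.72 in NTC, 5.13 in UHRF1KO, 4.49 in WT and 4.27 in RFTSdel replicate 1. RFTSdel replicate 2, the longest DNMT1i list, had none there (Fisher exact test, unadjusted p = 0.0476, Benjamini-Hochberg adjusted p = 0.324). In lists of equal length 3 DNMT1i and 0 DMSO libraries marked it. ZNF232 had peaks of fold 5.41, 4.66 and 4.23 in NTC, UHRF1KO and WT DNMT1i, and ZNF860 had 4.52, 5.96 and 3.7 in NTC, WT and RFTSdel replicate 2 DNMT1i. ZNF141 on chromosome 4 had a DNMT1i peak in NTC, UHRF1KO and WT (4.12, 4.49 and 4.87), 1670 to 2104 bases long, and a shorter DMSO peak of 464 bases in WT (3.56). Without the WT pair, 21 members had a peak in NTC DNMT1i and in none of the other DMSO libraries.

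Members with known roles were described in lists of 5 to 14 genes, and the lists were not tested against each other. Genes for RNA-binding, translation and spindle proteins were marked in 10, 10, 9, 8 and 9 of 10 cases in NTC, UHRF1KO, WT and RFTSdel replicates 1 and 2 under DMSO, and in 1, 1, 0, 2 and 6 under DNMT1i. The mean was 92.0% under DMSO and 20.0% under DNMT1i, against 57.5% and 25% for all members. No gene passed the adjusted test, 8 of 10 were marked in all 5 DMSO libraries (all coding 32.9%), and 6 of 10 had an unadjusted p below 0.05 with fewer DNMT1i libraries (all coding 13.7%). ZNF207, which binds BUB3 at kinetochores, the double-stranded RNA-binding protein gene ZNF346 and ZNF330 were marked in 5 DMSO and 0 DNMT1i libraries. ZNF598, the ubiquitin ligase that senses collided ribosomes, ZNF622, a maturation factor of the large ribosomal subunit, and the RNA-binding protein gene ZNF106 were marked in 5 DMSO libraries and in RFTSdel replicate 2 alone under DNMT1i. ZNF638, which silences unintegrated retroviral DNA together with the HUSH complex, kept its peak in 4 of 5 DNMT1i libraries, all but WT.

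Of 14 activators and cofactor partners, 9 were marked in all 5 DMSO libraries (64.3%, all coding 32.9%) and 3 in none (21.4%, all coding 37.0%), a mean of 75.7% under DMSO and 30.0% under DNMT1i. Under DNMT1i 2, 4, 0, 5 and 10 were marked in NTC, UHRF1KO, WT and RFTSdel replicates 1 and 2, where RFTSdel replicate 2 had 11 under DMSO. ZNF143, ZNF384, which is a fusion partner in acute lymphoblastic leukaemia, and ZNF263 were marked in 5 DMSO libraries and in RFTSdel replicate 2 under DNMT1i. ZNF24 was marked in 4 DMSO and 0 DNMT1i libraries. In this list 4 genes (28.6%, all coding 13.7%) had an unadjusted p below 0.05 and none an adjusted one. ZNF217, an oncogene product that works with the CoREST corepressor, had no end peak in any library but a peak over its body in all 10.

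Genes of development and lineage were rarely marked within 1 kb of an end under DMSO, and in 4 of 5 pairs more of them were marked under DNMT1i. This order depended on the window and the threshold, and in part on ZNF365. Of 13 genes 10 had no DMSO peak at an end (76.9%, all coding 37.0%), and the mean was 15.4% under DMSO and 26.2% under DNMT1i. By line the marked number went from 3 to 5 in NTC, from 2 to 1 in UHRF1KO, from 1 to 4 in WT, and from 2 to 3 and from 2 to 4 in RFTSdel replicates 1 and 2. ZNF365, described above as a regulator of genome stability, was in this list. It was among the genes marked under DNMT1i in NTC, UHRF1KO, WT and RFTSdel replicate 1. The rise from 2 to 3 in RFTSdel replicate 1 was ZNF365 alone. ZNF365, ZNF385B, ZNF521, a partner of EBF transcription factors, and ZNF804B had an end peak under DNMT1i only. ZNF503, a developmental repressor, was the 1 gene of the list marked in all 5 DMSO libraries. ZNF503 also held some of the longest end peaks of any member, 3188 bases in WT DMSO and 3254 in RFTSdel DNMT1i replicate 2. ZNF423, the paralogue of ZNF521, had a DMSO peak of 218 bases in NTC (fold 3.3) and DNMT1i peaks of 1827 bases in NTC (4.35) and 3209 bases in RFTSdel replicate 2 (4.44). No gene of the list passed the adjusted test, and 1, ZNF365, had an unadjusted p below 0.05 by the Fisher exact test. With a window of 3 kb the order turned, at 32.3% under DMSO and 29.2% under DNMT1i, and with −log10 q of at least 4 both means were 6.15%. The DMSO mean was 30.0% at gene starts alone among the genes with a known start, where the DNMT1i mean was 36.7%.

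**Figure D2:**
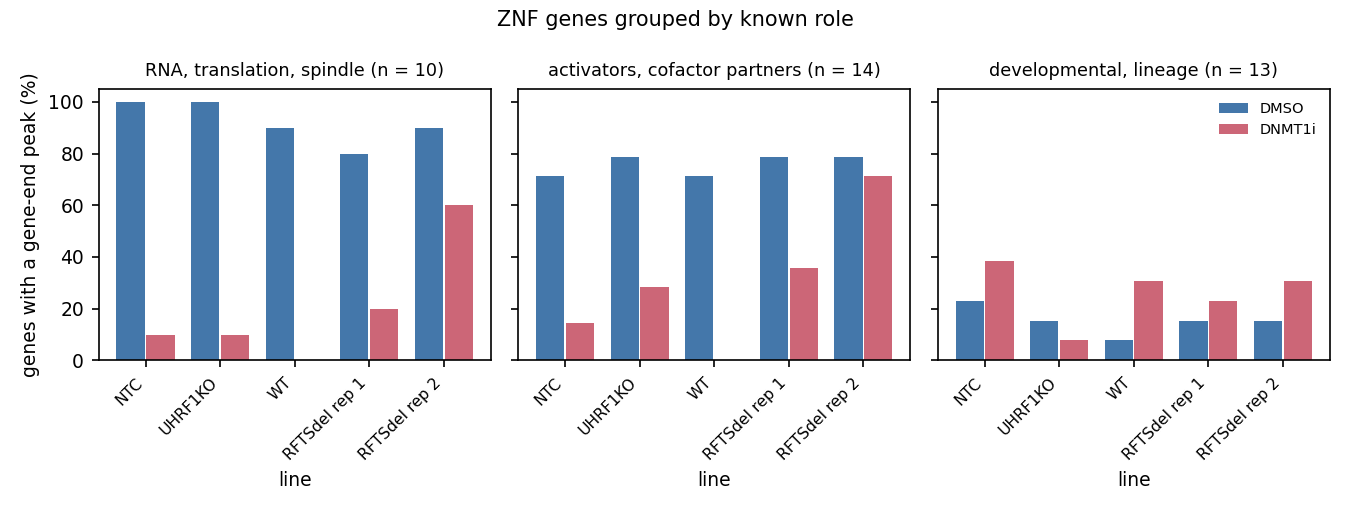
Share of genes with a gene-end peak (y axis, percent) by line (x axis) under DMSO (blue) and DNMT1i (red) for ZNF genes grouped by known role; n is the number of genes. The first 2 groups lie at 71.4 to 100% under DMSO, and the developmental group lies at 7.69 to 23.1%, with DNMT1i above DMSO in each line but UHRF1KO with this window of 1 kb.

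Genes for imprint control and X-linked disease were marked less regularly, a mean of 44.0% under DMSO and 20.0% under DNMT1i over 5 genes. ZNF445, which maintains imprints as ZFP57 does, was marked in 4 DMSO libraries, not in WT, and in both RFTSdel DNMT1i libraries. ZNF41 was marked in 4 DMSO libraries, not in NTC, and in no DNMT1i library. ZNF711, whose loss causes X-linked intellectual disability, was marked in NTC DNMT1i alone. Of 21 genes for partners of KRAB proteins, which are no members, 9 were marked in all 5 DMSO libraries (42.9%, all coding 32.9%) and the means were 70.5% and 27.6%. TRIM28 and the chromatin remodeller ATRX were marked in no library, and at SETDB1, the methyltransferase that TRIM28 recruits, the end peaks overlapped a parental peak and were removed (with parental peaks kept, 5 DMSO and 2 DNMT1i libraries). None of the 21 passed the adjusted test, and 4 (19%, all coding 13.7%) had an unadjusted p below 0.05, all with fewer DNMT1i libraries.

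Genomic clusters, defined as 3 or more members each within 250 kb of the next, held 95 members in 18 clusters. As a whole they were marked like the 168 others, 57.3% and 57.6% under DMSO and 25.9% and 24.5% under DNMT1i, but single clusters lay far apart. The cluster of 8 members at chr7:149069641-149497809 (ZNF786, ZNF425, ZNF398, ZNF282, ZNF212, ZNF783, ZNF777 and ZNF746) was marked at all 8 in each of the 5 DMSO libraries. Under DNMT1i 3, 2, 1, 5 and 8 of them were marked in NTC, UHRF1KO, WT and RFTSdel replicates 1 and 2. The 6 members at chr8:144720909-144950880, from ZNF251 to ZNF16, were likewise all marked in each DMSO library, and 1, 4, 0, 4 and 5 were under DNMT1i. On chromosome 16 the 9 members from ZNF48 to ZNF629 had 6 to 8 marked under DMSO, and 0, 1, 0, 4 and 5 under DNMT1i.

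Other clusters had fewer marked members. Of 10 members at chr7:63998849-64991036, from ZNF722 to ZNF117, 6 were never marked, 1 to 3 were marked under DMSO (mean 20.0%), and ZNF138 in RFTSdel replicate 2 was the only mark under DNMT1i. The 3 members from ZNF81 to ZNF630 on chromosome X had a single mark, ZNF81 in UHRF1KO DMSO, a DMSO mean of 6.67%. Of 7 members from ZNF445 to ZNF501 on chromosome 3, 4 were never marked, while ZNF852 was marked in all 5 and ZNF445 in 4 DMSO libraries, a DMSO mean of 25.7%.

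The ZNF354 cluster on chromosome 5 had more marks under DNMT1i. Its 5 members at chr5:178711512-179083977 are ZNF354A, ZNF354B, ZNF454, ZNF879 and ZNF354C. Under DMSO 1, 1, 3, 1 and 1 were marked in NTC, UHRF1KO, WT and RFTSdel replicates 1 and 2, and under DNMT1i 3, 3, 5, 1 and 1. ZNF354A was marked throughout, so the additional DNMT1i marks were ZNF454 and ZNF354C in NTC, ZNF354B and ZNF354C in UHRF1KO, and ZNF454 and ZNF879 in WT. The ZNF354C peak had folds of 5.47, 4.15 and 4.72 in NTC, UHRF1KO and WT DNMT1i and 4.66 in WT DMSO. The RFTSdel libraries marked no member of the cluster other than ZNF354A under either treatment. In lists of equal length ZNF354C was marked in 1 DMSO and 3 DNMT1i libraries, and ZNF454 in 0 and 2.

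By chromosome, the DMSO mean ran from 30.0% of 12 members on X and 31.6% of 19 on chromosome 3 to 85.7% of 7 on chromosome 15 and 86.7% of 3 on chromosome 14. All coding genes had 23.7% on X, 50.3% on chromosome 3, 51.1% on 15 and 52.9% on 14. Chromosomes 7 and 16, with the most members, had 58.3% of 35 and 70.7% of 30 (all coding 46.8% and 57.3%), and under DNMT1i 24.6% and 26.0% (all coding 21.5% and 23%). On chromosome 3, 8 of 19 members were never marked, and on chromosome 12 none of 13. The ZNF genes on chromosome 19 differed in the lines: under DMSO 30.9 to 50.8% were marked, and under DNMT1i 28.0% in NTC and 20.7% in WT but 10.6% and 19.9% in RFTSdel. Outside chromosome 19 the members had higher shares in RFTSdel than in NTC and WT under DNMT1i. All coding genes did too, with 29.1 and 41.2% in RFTSdel against 14.5% in NTC and 9.95% in WT. No test was run on these differences, since a line had 1 or 2 libraries.

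The CpG number of the promoter, which the choice of members did not use, went with the share of marked members. A promoter window of 300 bases, from 250 before to 50 after the start, was present in the RefSeq table for 214 of 263 members and 15841 coding genes. With 0 to 10 CpGs (26 members) a mean of 19.2% were marked under DMSO, with 11 to 20 (54 members) 44.1%, with 21 to 30 (74 members) 70.0% and with 31 to 60 (60 members) 76.7%. The DNMT1i means were 10.0, 14.4, 24.6 and 42.7%. All coding genes in the same classes had 16, 47.4, 64.1 and 73.1% under DMSO and 6.42, 16.9, 25 and 39.3% under DNMT1i. In the class of 31 to 60 CpGs the DNMT1i share was 30.0% in NTC, 41.7% in UHRF1KO, 13.3% in WT, 51.7% in RFTSdel replicate 1 and 76.7% in replicate 2. In WT it was 11.1, 13.5 and 13.3% over the 3 classes above 10 CpGs, nearly level, whereas in RFTSdel replicate 1 it was 5.56, 27.0 and 51.7%.

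By pattern, the median number of CpGs in the 300-base window was 14 in the never-marked members, 21.5 in those marked under DNMT1i only, 21 in those marked in all 5 DMSO libraries and no DNMT1i library, and 33.0 in those marked in all 5 DMSO and 3 or more DNMT1i libraries. For all coding genes the corresponding medians were 5.0, 25, 23 and 33.0. The letters CCGGAAG, the core of many ETS factor sites, occurred on either strand in 34.1% of the members' windows, in 14.2% of all coding ones and in 45.4% of those of ZNF genes on chromosome 19. They were present in 45% of the never-marked members' windows (all coding 5.93%, chromosome 19 ZNF genes 47.3%). Of the members marked under DNMT1i only, 11.1% held them (2 of 18, all coding 6.06%, chromosome 19 ZNF genes 45%). The E-box letters CACGTG, a palindrome, occurred in 6.07% of the members' windows (all coding 8.88%). Neither motif contains the other, and a match is not a binding site.

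Some peaks could not be ascribed to 1 gene. In 68 members an end window touched that of another protein-coding gene, and these had a DMSO mean of 66.8% against 54.3% for the other 195, with DNMT1i means of 24.1% and 25.3%. Among 22 members with a start of the opposite strand within 1 kb, the DMSO mean was 78.2%. At most 8 members in a library were marked by a peak that also marked another member.

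Of the 55 members with no end peak after removal of parental peaks, 16 had a peak over the body in at least 1 library and 39 had neither. ZNF217 on chromosome 20 and ZNF469, the brittle cornea gene on chromosome 16, had a body peak in all 10 libraries. ZNF710 had one in 5 DMSO and 4 DNMT1i libraries, ZNF704 in 4 and 5, and ZNF185 in 4 and 3. ZNF217 is 30632 bases long and ZNF469 339823, and the part of gene length in these peaks was not tested. The RefSeq start used for the promoters lay 3863 bases inside the annotated end at ZNF217 and 16365 at ZNF185, outside the 1 kb end window. Whether the body peaks lay at these starts was not tested. The longest end peak of a member was 3969 bases, at the far end of ZNF768 in UHRF1KO DMSO, and under DNMT1i 3408 bases, at ZNF703 in RFTSdel replicate 1.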

How the data were processed

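Anti-GFP ChIP-seq in MV4-11 cells is labelled for 13 samples. Lists of 10 GFP-DNMT1 libraries and of the parental library were used, and the 2 inputs were not analysed here. The 11 files hold broad peaks, a list for every library and none for pooled replicates. The submitters' processing notes name GRCh38, MACS2, BWA, cutadapt, Picard and deepTools; their versions and settings, and the control used for calling, are not given in the sources analysed here. The authors' fold column is a ratio of peak signal over local background, and p and q are deposited as −log10 values. The score column that the authors deposited was not used. The lowest −log10 q lay just above 1.

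Peaks on the main chromosomes were kept, and peaks overlapping a parental peak by 1 bp were removed. Gene positions, starts and promoters came from RefSeq for GRCh38.p14. Promoters were matched to genes by gene identifier, on the same chromosome. A gene was marked by a peak within 1 kb of either end. Presence in 5 DMSO and 5 DNMT1i libraries was tested per gene by Fisher's exact test over 20033 genes with Benjamini-Hochberg adjustment. UHRF1KO against NTC and RFTSdel against WT got no test, since NTC, UHRF1KO and WT have 1 library per treatment. Groups and batches follow the sample labels, and the series' design text numbers the batches the other way. DMSO and DNMT1i libraries were paired by line, RFTSdel by replicate number. Wilson intervals (95%) cover counting error only.

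The members, role lists (RNA, translation and spindle; activators and cofactor partners; developmental; imprint and X-linked; KRAB partners) and tests were chosen with earlier results of these data known. Named genes are members marked in all 10 libraries, the 10 DMSO-only members with the highest minimum −log10 q, the 10 with the largest DNMT1i excess, list members, the 5 with body peaks only, the 5 longest peaks per treatment, and members with a parental peak; other names were chosen after their values were seen. ZNF536 of the developmental list lies on chromosome 19 and was left out. Planned counts of fingers and KRAB domains were not run, as protein sequences were not used here. The overlap code was tested on simulated lists over 20033 genes and passed 7 of 7 checks. The software was scipy 1.17.1, pandas 2.3.3, numpy 2.4.6 and matplotlib 3.10.9 under Python 3.11.15.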

Additional observations from a re-analysis of the deposited data

How the results depend on the processing

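The alternatives raised the minimum −log10 q to 2 or 4, kept parental peaks, reduced the lists to equal length, used windows of 500 bp or 3 kb, required 50% of the peak inside, used gene starts only, left out each pair, or paired the libraries. One value changed its direction: the mean change of the developmental list, 10.8 points, was −3.08 points with a window of 3 kb (DMSO 32.3%, DNMT1i 29.2%), and it was 0.0 with −log10 q of at least 4. The Fisher exact test with adjustment called 0 members in each. Members with fewer DNMT1i libraries at an unadjusted p below 0.05 (52) numbered 17 with −log10 q of at least 4, 5 in lists of equal length and 14 to 40 with a pair left out. With the replicate block, an exact sign-flip test over 5 pairs, the number was 0, since this pairing cannot give a p below 0.0625. The mean change at gene ends (−32.5 points) was −20.4 points with −log10 q of at least 4, −6.54 in lists of equal length, and from −38.4 to −29.9 with a pair left out; the body change was −4.11 points in lists of equal length. The mean share of DMSO-marked members kept (34.7%) was 25% with −log10 q of at least 2, 9.32% with at least 4, and 24.3 to 40.8% with a pair left out, the lowest without RFTSdel replicate 2. Members in all DMSO and no DNMT1i libraries (13) numbered 5 with −log10 q of at least 4, 3 in lists of equal length, and up to 40 with a pair left out, the value without RFTSdel replicate 2. Members in every library (5) numbered 0 with −log10 q of at least 2 or 4 and in lists of equal length, 3 with 500 bp or 50% of the peak inside, and 9 with 3 kb or without the WT pair. With −log10 q of at least 4, no member was marked in both wild-type DNMT1i libraries and in no DMSO library. Fewer peaks, fewer libraries or a wider window enter these alternatives by construction; beyond that the cause was not tested. Without read counts, an absent peak does not show absent binding.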
